A study of Caenorhabditis elegans with 2 samples.

Results

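The small RNA genes of Caenorhabditis elegans that make tRNAs, small nuclear RNAs (snRNAs) and small nucleolar RNAs (snoRNAs) had 218 candidate peaks of the transcription factor EOR-1 at or beside them, of 6708 in all. A peak was counted when its summit lay inside or within 200 bp of a gene annotated as tRNA, snRNA or snoRNA, and it was assigned to the nearest such gene. The 218 peaks comprised 135 at tRNA genes, 13 at snRNA genes and 70 at snoRNA genes, and they were nearest to 205 different genes. The strongest were at the spliced leader RNA genes sls-2.4 and sls-2.2, at the snoRNA genes M7.15, W06H8.17 and D2021.6, and at the alanine tRNA gene F15G9.t2. Summits were densest inside tRNA genes. By strength, these peaks were spread over most of the pooled list. Among its 1000 strongest peaks were 47 of them (21.6%), where 14.9% of all pooled peaks were. At the 500 strongest the shares were close, 7.80% and 7.45%.

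EOR-1 binding had been measured by chromatin immunoprecipitation and sequencing (ChIP-seq) in whole L3 larvae, both sexes mixed, of strain OP81. Its genotype is unc-119(ed3) III with the transgene wgIs81, which carries eor-1 fused to GFP, and the labels do not name the promoter of the transgene. All samples belonged to 1 group with 2 biological replicates, each made from many whole animals, so cell types within the larva were not separated. The authors deposited a list of peaks per replicate, a pooled list and a short thresholded list kept by the irreproducible discovery rate, a measure of how well peak ranks match across replicates. The pooled list, used here unless stated, also holds background entries, so its weaker entries are only candidates. The depth of sequencing is unknown. There was no second group, so every comparison below is between these peaks and all pooled peaks, given as counts and shares with exact (Clopper-Pearson) 95% intervals that cover counting error only, and no test was made.

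EOR-1 carries a BTB domain and zinc fingers, resembles human PLZF and works together with EOR-2 in signalling through Ras and Wnt. tRNA genes are transcribed by RNA polymerase III from a promoter inside the gene, whose A and B boxes are bound by the factor TFIIIC. snRNAs build the spliceosome, and in nematodes a further set, the spliced leader RNAs, donate their first bases to the 5′ ends of many messenger RNAs, SL2 mostly to genes that lie downstream in operons. snoRNAs guide the chemical modification of ribosomal and other RNAs, and many of them are made from introns of host genes.

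The genes under the strongest of these peaks are shown first, since the sequence of a tRNA gene holds its own promoter and since many tRNA genes have identical copies elsewhere in the genome. Sequences were read from the WBcel235 assembly, which is ce11, 5′ to 3′ on the gene's strand, and the capitals mark the B box, searched as GTTCNANNC. The 6 tRNA genes are from the 10 strongest tRNA peaks, of which those at F52H2.t2, F41D9.t3, T09B4.t1 and C28G1.t1 are not printed. They carry alanine (F15G9.t2, chrX:9743747-9743818, plus strand), glutamine (T03E6.t1, chrV:16592237-16592308, minus strand), aspartate (Y54G2A.t3, chrIV:2805627-2805698, plus strand), proline (F46G11.t2, chrX:5801211-5801282, minus strand), lysine (K04C2.t3, chrIII:6887728-6887800, minus strand) and leucine (C04A11.t1, chrX:13665555-13665673, plus strand).
F15G9.t2: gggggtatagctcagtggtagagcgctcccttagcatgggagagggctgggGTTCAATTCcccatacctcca
T03E6.t1: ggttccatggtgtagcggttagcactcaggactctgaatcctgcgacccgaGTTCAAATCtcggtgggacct
Y54G2A.t3: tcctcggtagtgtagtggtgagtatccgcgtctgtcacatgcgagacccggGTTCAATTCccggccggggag
F46G11.t2: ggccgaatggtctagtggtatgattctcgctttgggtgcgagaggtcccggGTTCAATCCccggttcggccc
K04C2.t3: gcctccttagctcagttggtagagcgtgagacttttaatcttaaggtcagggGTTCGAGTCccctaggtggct
C04A11.t1: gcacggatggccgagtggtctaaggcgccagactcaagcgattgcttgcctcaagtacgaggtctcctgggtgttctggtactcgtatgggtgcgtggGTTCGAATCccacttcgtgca
In each of the 6 genes the box lay in the 3′ part, at position 52 of 72 in F15G9.t2 and at position 99 of 119 in C04A11.t1. The genome held 15 identical copies of F15G9.t2, 5 of T03E6.t1, 24 of F46G11.t2 and 14 of K04C2.t3, each count including the gene itself, while Y54G2A.t3 and C04A11.t1 had 1 copy each.

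The SL2 gene with the second strongest snRNA peak, sls-2.2 (chrII:5543598-5543707, plus strand), is shown with its first 22 bases, the spliced leader, in capitals. The snoRNA gene with the strongest peak, M7.15 (chrIV:11083147-11083243, plus strand), is shown with the letters CTGA near its 3′ end in capitals. These letters were searched as those of a D box, and they do not assign a class.
sls-2.2: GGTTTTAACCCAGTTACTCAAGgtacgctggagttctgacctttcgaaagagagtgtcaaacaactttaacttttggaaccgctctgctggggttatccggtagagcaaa
M7.15: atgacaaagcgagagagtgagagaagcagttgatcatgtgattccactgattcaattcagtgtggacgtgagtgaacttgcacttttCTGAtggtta
The sls-2.2 summit lay inside the gene, 69 bp from its first base, downstream of the leader. The M7.15 summit lay 143 bp before the first base of the gene.

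M7.15 and D2021.6, whose snoRNA peaks were among the strongest, had the GAGA-type letters GAGAGA within 100 bp of the summit, and the letters around the summit are printed for that reason, on the plus strand, with GAGAGA in capitals. The windows are chrIV:11082904-11083104 for M7.15 and chrX:8546098-8546298 for D2021.6.
M7.15 summit: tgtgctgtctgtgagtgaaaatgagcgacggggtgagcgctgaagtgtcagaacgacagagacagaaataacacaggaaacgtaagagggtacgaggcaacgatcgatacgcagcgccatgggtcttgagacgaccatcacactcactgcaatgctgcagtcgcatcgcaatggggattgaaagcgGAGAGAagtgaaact
D2021.6 summit: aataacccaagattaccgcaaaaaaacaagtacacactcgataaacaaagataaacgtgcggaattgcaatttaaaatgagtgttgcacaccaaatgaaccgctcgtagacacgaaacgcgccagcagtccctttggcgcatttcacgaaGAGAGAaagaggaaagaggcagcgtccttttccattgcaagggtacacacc
GAGAGA lay in the 3′ part of both windows.

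The share of genes with a pooled summit within 200 bp was highest for tRNA genes, with an interval that overlapped that of snoRNA genes and not that of snRNA genes. Of 612 nuclear tRNA genes 147 had one (24.02%, interval 20.7 to 27.6), of 346 snoRNA genes 68 had one (19.7%, 15.6 to 24.2) and of 129 snRNA genes 11 had one (8.53%, 4.33 to 14.7). Over the 3 classes this was 226 of 1087 genes (20.8%, 18.4 to 23.3). Counted with the same distance, 19 of 261 microRNA genes (7.28%), 929 of 7764 genes of the class ncRNA (12.0%) and 72 of 2128 pseudogenes (3.38%) had a summit. So did 27 of 194 lincRNA genes (13.9%, interval 9.38 to 19.6) and 14 of 100 antisense RNA genes (14%, 7.87 to 22.4). The nuclear rRNA genes had none, 0 of 20 (exact upper limit 16.8%, and 15% if 3 counts are taken as the limit). Whether reads could be placed at genes without a summit was not tested. Protein-coding genes, at 16.6%, are far longer (median 2027 bp, beside 72 bp for tRNA genes) and cannot be compared at the same distance. The same limit holds for pseudogenes (median 1183.5 bp), lincRNA genes (761 bp) and antisense RNA genes (689 bp). The windows of 200 bp around tRNA, snRNA and snoRNA genes made up 0.519% of the genome and held 3.25% of the pooled summits.

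The density of summits fell sharply with distance from tRNA genes. Inside the genes there were 0.873 summits per kb (40 summits, exact Poisson interval 0.624 to 1.19), and in the first 200 bp on either side 0.418 per kb (95 summits, 0.338 to 0.511). From 201 to 500 bp the density was 0.0702 per kb (0.0435 to 0.107), close to the 0.0669 per kb of the whole genome. Around snoRNA genes the density was 0.337 per kb inside (0.193 to 0.547) and 0.408 per kb within 200 bp (0.308 to 0.531), and it remained at 0.137 per kb (0.110 to 0.169) from 1001 to 2000 bp away. At snRNA genes the counts were small, with 2 summits inside (0.128 per kb) and 11 within 200 bp (0.220 per kb, interval 0.110 to 0.393).

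**Figure D1:**
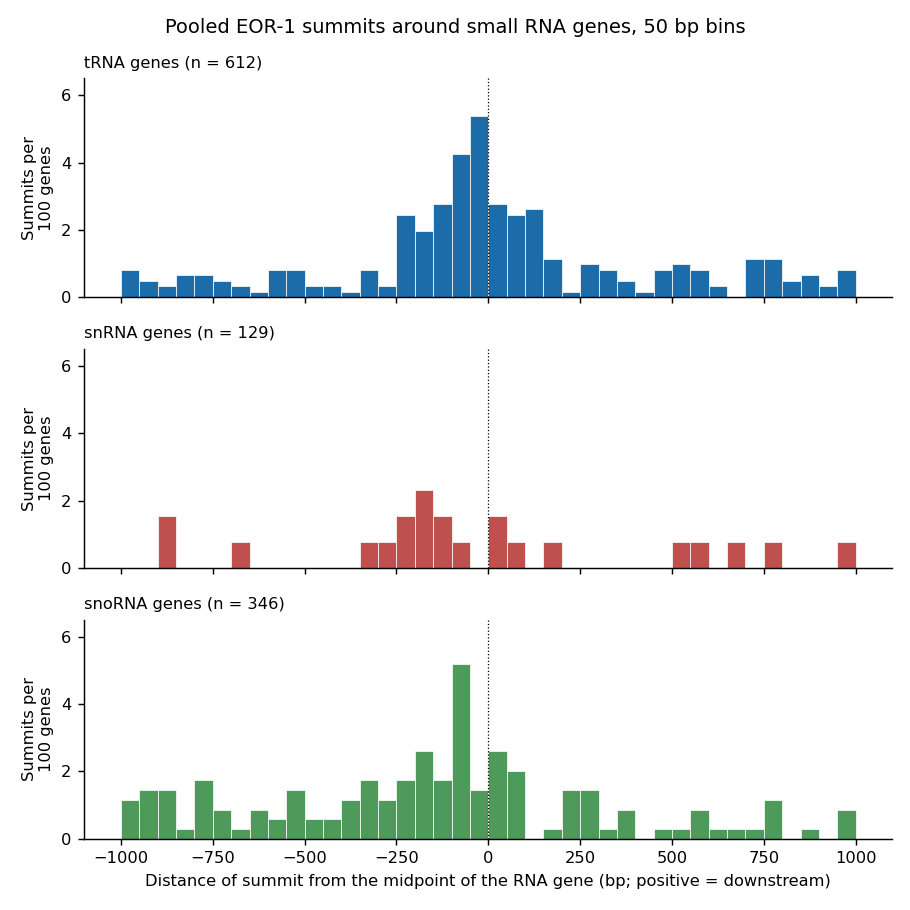
Number of pooled EOR-1 summits per 100 genes (vertical axis) in bins of 50 bp by distance from the midpoint of the gene in bp (horizontal axis, negative values upstream in the direction of transcription), for 612 tRNA, 129 snRNA and 346 snoRNA genes. A summit near several genes is counted for each; in each panel the highest bin lies upstream of the midpoint, next to it for tRNA genes and farther from it for snRNA and snoRNA genes.

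Within tRNA genes and their flanks, 57 summits lay upstream of the first base, 40 inside the gene and 38 downstream. The median position was 7 bp after the first base (interval −5 to 27). Among the 30 tRNA peaks that were in the 1000 strongest, 15 lay upstream, 12 inside and 3 downstream. The B box was found in 587 of the 612 tRNA genes (95.9%), in 143 of the 147 genes with a summit and in 444 of the 465 without one. For the 131 tRNA peaks whose gene had a box, the median summit lay 48 bp before the centre of the box (interval −62 to −28), and 83 of the 131 lay within 100 bp of it.

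At snoRNA genes 39 summits lay upstream, 16 inside and 15 downstream, with a median 14 bp before the first base (interval −34 to 12). All 14 snoRNA peaks of the 1000 strongest lay upstream (9) or inside (5). At snRNA genes 9 of 13 lay upstream, with a median 89 bp before the first base (interval −151 to 74). The members nearest to the limit of the rule were 2 summits at 198 bp, from the SL2 gene sls-2.5 and the tRNA gene B0513.t1, both with a signal value of 2.78. Just outside it, a summit lay 202 bp from the tRNA gene F29C4.t1 (signal value 2.23) and another 210 bp from T01B4.t2 (2.57).

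Peaks at small RNA genes ranked slightly above the middle of the pooled list. Ranks were taken by the deposited signal value, with 1 the strongest, and signal values are not comparable between lists. The median rank was 2717 (interval 2048 to 3064), against 3263 over all pooled peaks, and the signal values ran from 2.06 to 19.7. By class the medians were 2663 for tRNA, 2417 for snRNA and 2905.5 for snoRNA peaks. Of the 218 peaks 47 were among the 1000 strongest (21.6%, interval 16.3 to 27.6), where 14.9% of all pooled peaks were. These were 30 of 135 tRNA peaks (22.2%, 15.5 to 30.2), 3 of 13 snRNA peaks (23.1%, 5.04 to 53.8) and 14 of 70 snoRNA peaks (20%, 11.4 to 31.3). At the 500 strongest the share was 7.80% (17 peaks), against 7.45% of all pooled peaks.

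The share of strong peaks was 31.0% for summits inside an RNA gene and 18.1% for those beside one, with overlapping intervals. Of the 58 inside, 18 were among the 1000 strongest (interval 19.5 to 44.5), and of the 160 outside, 29 were (12.5 to 24.98). Some of these peaks also lay near a protein-coding gene. Within 500 bp of 57 of the 218 summits lay a protein-coding start (26.1%, interval 20.4 to 32.5), as it did for 38.4% of all pooled peaks. Of those 57, 18 were among the 1000 strongest (31.6%, interval 19.9 to 45.2), and of the 161 others 29 were (18.0%, 12.4 to 24.8). Among the other pooled peaks the share was 18.9% of the 2520 with a start within 500 bp and 12.0% of the 3970 without one. Counting only summits inside an RNA gene, 37.9% had a start within 500 bp, close to the share of all pooled peaks.

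**Figure D2:**
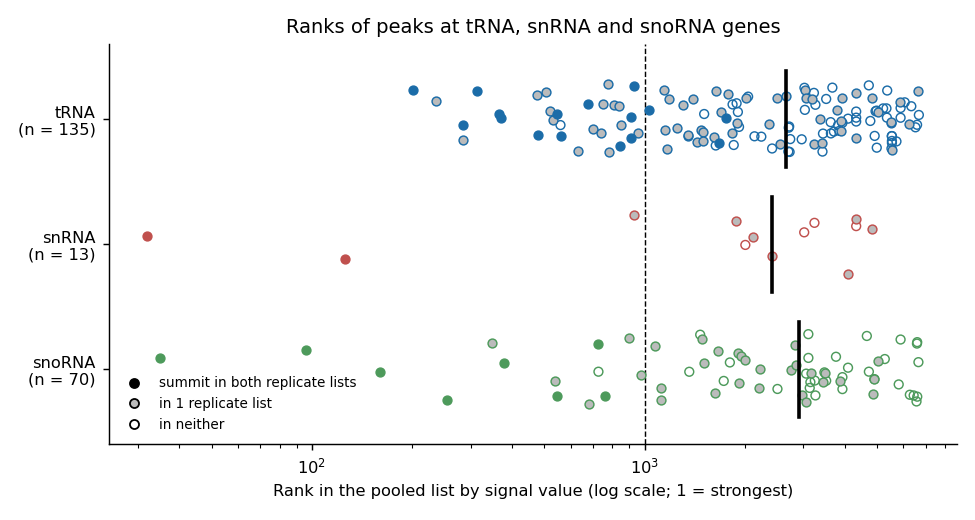
Rank of each of the 218 peaks in the pooled list by signal value (horizontal axis, log scale, 1 the strongest), by class of the nearest RNA gene, with the vertical spread of points only for legibility. Black bars mark the medians (2663, 2417 and 2905.5), the dashed line marks rank 1000, and the fill of a point shows whether the peak had a summit within 200 bp in both, 1 or neither replicate list.

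The strongest tRNA peak, at the alanine gene F15G9.t2 on the X chromosome, had a pooled signal value of 11.4 and ranked 202. It had a signal value of 3.81 and rank 774 in replicate 1, and 5.09 and rank 286 in replicate 2. The summit lay 43 bp upstream of the gene, which sits on the same strand in an intron of him-4, the gene of the extracellular matrix protein hemicentin. The next, at the asparagine gene F52H2.t2, ranked 236 (signal value 11.0) and had a summit in replicate 2, at rank 61, and none within 200 bp in replicate 1. The reverse held for the glutamine gene T03E6.t1, which ranked 284 and had rank 161 in replicate 1 and no summit in replicate 2. A second asparagine gene, F41D9.t3, ranked 285 (274 in replicate 1 and 1618 in replicate 2) and lies in an intron of sulp-3, a sulfate permease family gene, on the opposite strand.

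Among the remaining tRNA peaks of the 10 strongest, T09B4.t1 (isoleucine) ranked 313, Y54G2A.t3 (aspartate) 366, F46G11.t2 (proline) 371 and K04C2.t3 (lysine) 478, and each of these had a summit in both replicate lists. In replicate 1 they ranked 1627, 443, 423 and 486, and in replicate 2 they ranked 316, 1223, 1218 and 1656. Each of them thus had unlike ranks in the replicate lists, which hold 2488 and 2610 peaks. Whether these peaks differed in strength between replicates was not tested. The peaks upstream of C28G1.t1 (glutamate, rank 474) and C04A11.t1 (leucine, rank 506) had a summit in replicate 2 only, at ranks 1605 and 195. Each gene had a second peak, which at C28G1.t1 lay inside the gene, ranked 956 and had a summit in replicate 1 only (rank 383), and at C04A11.t1 ranked 3038 with a summit in replicate 2 (rank 575). K04C2.t3 lies in an intron of brd-1, the gene of a partner of the BRCA1 homologue. Of the 10 strongest tRNA peaks, 3 had a protein-coding start within 500 bp, where 22.2% of all tRNA peaks and 49.5% of the 1000 strongest pooled peaks did. The 3 were T03E6.t1 (srh-269, 368 bp), Y54G2A.t3 (Y54G2A.45, 202 bp) and C28G1.t1 (80 bp from a start of C28G1.2, of which it overlaps an exon). The part of these starts was not tested.

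tRNA genes for 20 amino acids had a nearby summit. The share of genes with one was highest for tryptophan (5 of 12, 41.7%, interval 15.2 to 72.3), aspartate (10 of 27, 37.0%, 19.4 to 57.6) and glycine (20 of 55, 36.4%, 23.8 to 50.4). It was lowest for methionine (3 of 20, 15%, 3.21 to 37.9) and serine (6 of 39, 15.4%, 5.86 to 30.5). The intervals of the highest and lowest amino acids overlapped. A single summit can lie within 200 bp of several clustered tRNA genes, and the 20 glycine genes shared 13 summits. The amino acid was taken from the RefSeq annotation, which gave it for 607 of the 612 genes.

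**Figure D3:**
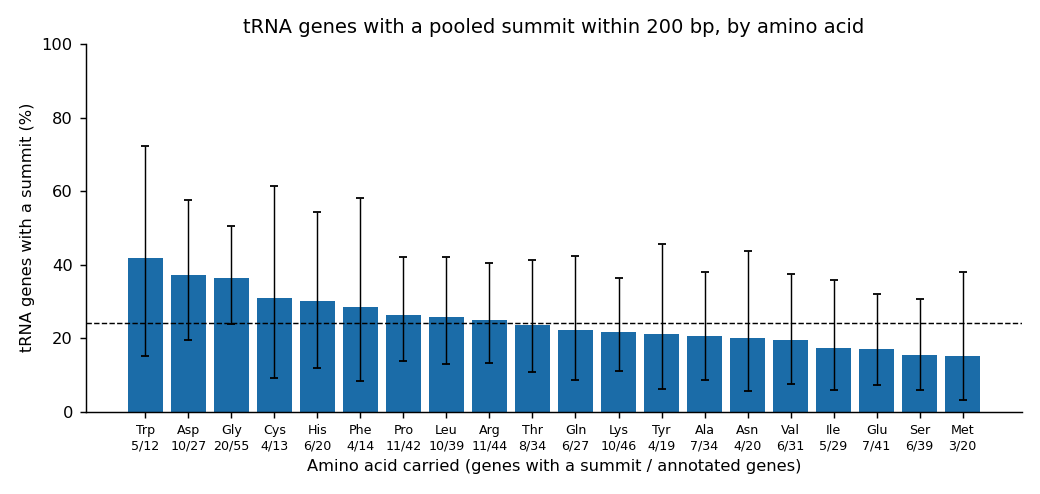
Share of annotated nuclear tRNA genes with a pooled summit within 200 bp (vertical axis, percent) by amino acid, with the counts under each bar and exact 95% intervals as error bars. The dashed line marks the 24.02% of all tRNA genes; bars run from 41.7% for tryptophan to 15% for methionine and their intervals overlap.

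Genes of identical sequence differed in whether they had a summit. There were 32 sets of 5 or more tRNA genes with identical sequence, and in 29 of them some but not all genes had a summit within 200 bp. In the largest set, 29 identical glycine genes, 16 had one (55.2%), from 9 separate summits. The strongest of these, at R04E5.t2, ranked 843 and appeared in both replicates (ranks 1651 and 1163). Of 25 identical lysine genes 6 had a summit, of 24 proline genes 9, of 21 aspartate genes 8 and of 20 glutamate genes 3. The 18 identical asparagine genes had 4, at F52H2.t2 (rank 236), F41D9.t3 (285), ZK507.t1 (783) and W06D4.t1 (2713), so that copies with the same letters ranged from strong peaks to none. In 3 sets no gene had a summit, namely 12 valine genes, 7 leucine genes and 7 serine genes.

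By number of copies, 28 of 143 single-copy tRNA genes had a summit (19.6%, interval 13.4 to 27.04), 11 of 67 with 2 to 4 copies (16.4%, 8.49 to 27.5), 17 of 85 with 5 to 9 (20%, 12.1 to 30.1) and 91 of 317 with 10 or more (28.7%, 23.8 to 34.0). Clustered genes can share a summit, so these genes are not independent and the intervals do not allow for that. Short reads from identical genes cannot be told apart by the gene alone, so the sequence around the summits was examined for words of 36 bases that recur elsewhere in the genome. At least 1 such word lay within 100 bp of the summit in 100 of the 218 peaks (45.9%, interval 39.1 to 52.7), where 6.28% of all pooled peaks had one. The share was 66.7% of tRNA peaks (90 of 135), 46.2% of snRNA peaks (6 of 13) and 5.71% of snoRNA peaks (4 of 70). Of the strongest snRNA peaks, that at sls-2.4 had no recurring word, while 31.3% of the words recurred at sls-2.2. In no peak did most of the words recur (0 of 218, exact upper limit 1.68%), and the highest share of recurring words was 49.4%. A tRNA gene (median length 72 bp) fills only part of the window. A fully repeated gene with unique flanks therefore need not reach most of the words, and the 0 does not show unique sequence. Among tRNA peaks with a recurring word 24 of 90 were among the 1000 strongest (26.7%, 17.9 to 37.0), and among those without one 6 of 45 were (13.3%, 5.05 to 26.8). The placement of reads from repeated sequence was not given in the sources used here, and the part of read placement in these ranks was not tested.

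The X chromosome held 70 of the 218 peaks (32.1%, interval 26.0 to 38.7), against 20.6% of all pooled peaks, and 68 of the 70 were at tRNA genes. It also carries 276 of the 612 nuclear tRNA genes. Of those 276, 74 had a summit (26.8%, interval 21.7 to 32.5), against 73 of 336 on the autosomes (21.7%, 17.4 to 26.5). Of the 33 snoRNA genes on X, 2 had a summit (6.06%, 0.743 to 20.2), against 66 of 313 on the autosomes (21.1%, 16.7 to 26.0).

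The spliced leader genes gave the strongest snRNA peaks. sls-2.4, an SL2 gene on chromosome I, had a peak of rank 32 with a signal value of 19.7, 136 bp upstream of its first base. It ranked 189 in replicate 1 (signal value 6.76) and 15 in replicate 2 (12.9). It was the single peak at a small RNA gene that was kept in the thresholded list, 1 of 218 (0.459%), where 0.492% of all pooled peaks had a thresholded summit within 200 bp. The summit also lay 481 bp from a start of egg-5, a gene of the egg-to-embryo transition, and its part in the peak was not tested. A second, weak summit inside sls-2.4 ranked 4816.

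The sls-2.2 peak, inside the gene on chromosome II, ranked 126 with a signal value of 13.2. Its rank differed widely between the replicate lists, with 35 in replicate 2 (signal value 9.72) and 1935 in replicate 1 (2.48). The lists hold 2488 peaks (replicate 1) and 2610 peaks (replicate 2), and their signal values are not comparable. Whether the peak differed in strength between replicates was not tested. No protein-coding start lay within 500 bp, the nearest being that of the insulin-like gene ins-13 at 1197 bp. The SL2 gene sls-2.5 had a weak peak in an intron of the glutamate receptor gene glr-2 (rank 4326, in neither replicate list). In all, 3 of the 18 sls-2 genes had a summit within 200 bp (16.7%, interval 3.58 to 41.4) and 0 of 12 annotated sls-1 genes, the SL1 genes (exact upper limit 26.5%, and 25% from 3 counts). Recurring words were counted only around summits, so whether reads could be placed at the sls-1 genes was not tested.

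The other snRNA peaks were weaker. F54D8.7 on chromosome III had a pair of summits, at ranks 932 and 2122, 2 bp and 107 bp from the gene, and both matched the same replicate 1 summit (rank 2001). R07E5.16, in an intron of the dynein heavy chain gene dhc-4, ranked 1880 and had a summit in replicate 1 only (rank 853). T11F9.15 (rank 2009), F38E11.11 (3019) and sup-6 (3241) had no summit in either replicate list. smy-1, in an intron of C33A12.3, ranked 2417 with a replicate 2 summit at rank 1197. F08H9.11 (rank 4089) and T08G5.11 (4326) had a summit in replicate 1 only, at ranks 1388 and 1487.

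Among snoRNA genes, M7.15 on chromosome IV had the strongest peak, with rank 35 and a signal value of 19.1. It ranked 430 in replicate 1 (signal value 5.02) and 84 in replicate 2 (7.60), and the nearest protein-coding start, of the kinesin light chain gene klc-1, was 731 bp away. W06H8.17 on chromosome V had 2 summits, at rank 96 (signal value 14.8, inside the gene) and rank 724 (6.85, 107 bp upstream), and both matched the same replicate summits, at ranks 69 and 344. D2021.6 on the X chromosome ranked 160 (signal value 12.3), with ranks of 1340 and 1928 in the replicates. Its summit lay 6 bp inside the gene and 177 bp from a start of sdha-1, which encodes a subunit of succinate dehydrogenase, and the part of that start was not tested.

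F30H5.4 on chromosome III ranked 255 (795 in replicate 1 and 173 in replicate 2), 116 bp upstream of the gene and 9529 bp from the nearest protein-coding start. F07A11.15 ranked 349, inside the gene and 97 bp from a start of din-1, a transcriptional corepressor gene of which it overlaps an exon on the opposite strand, and this peak had a summit in replicate 2 only (rank 52). A second peak, 131 bp from F07A11.15, ranked 1948 and had a summit in replicate 1 only (rank 518). C36E8.11 ranked 379 (1639 and 1093 in the replicates), 249 bp from a start of tif-1A. K02C4.8 ranked 547 and had similar ranks in the replicates, 749 and 895. F09G2.14 (rank 538) and T27A3.9 (rank 682) had a summit in replicate 1 only, at ranks 811 and 406. A protein-coding start also lay within 500 bp of the summits at K02C4.8 (K02C4.2, 239 bp), F09G2.14 (F09G2.2, 251 bp) and the stronger W06H8.17 peak (W06H8.6, 436 bp). The part of these starts was not tested.

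Peaks were found at RNA genes inside and outside protein-coding hosts. Of the 70 snoRNA peaks 28 were at genes in introns of protein-coding genes, 25 of them on the host's strand, where 172 of the 346 annotated snoRNA genes are intronic, 145 on the host's strand. A further 32 snoRNA peaks were at genes outside protein-coding genes. Of the 135 tRNA peaks 62 were at intronic genes, 40 of them on the host's strand, where 284 of the 612 annotated tRNA genes are intronic, 162 on the host's strand. Of the 14 snoRNA peaks among the 1000 strongest, 10 were at genes outside and 2 at intronic genes. Counted over genes, 31 of 124 snoRNA genes outside protein-coding genes had a summit (25%, interval 17.7 to 33.6) and 29 of 172 intronic ones (16.9%, 11.6 to 23.3). For tRNA genes the shares were alike, with 78 of 319 outside (24.5%, 19.8 to 29.6) and 67 of 284 in introns (23.6%, 18.8 to 29.0). All 3 snRNA peaks of the 1000 strongest were at genes outside protein-coding genes. Several host genes had 2 of these peaks each, among them rol-3, din-1 and brd-1.

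By the letters at their ends, 14 snoRNA genes had a C box (TGATGA in the first 20 bases) and a D box (CTGA in the last 20), and 5 of them had a summit (35.7%, interval 12.8 to 64.9). Of 58 genes with ACA 3 bases before the 3′ end, the mark of the H/ACA class, 15 had a summit (25.9%, 15.3 to 39.0). Of the 274 with neither, 48 had one (17.5%, 13.2 to 22.5). The letters are a description and do not assign a class.

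Few of these peaks had a summit in both replicate lists. Replicate 1 had a summit within 200 bp of 77 of the 218 peaks and replicate 2 of 71, and 96 had one in neither. At least 1 list had one for 122 (55.96%, interval 49.1 to 62.66), where 51.85% of all pooled peaks did. Both lists had one for 26 (11.9%, interval 7.94 to 17.0), where 7.8% of all pooled peaks did. The 26 comprised 16 tRNA, 2 snRNA and 8 snoRNA peaks, and they are fewer than 26 separate sites, since the W06H8.17 pair, like the peaks at F46G11.t1 and F46G11.t2, matched the same replicate summits. Among the 47 peaks in the 1000 strongest, 23 had both (48.9%, interval 34.1 to 63.9), where 42.8% of the 1000 strongest pooled peaks did. Since the pooled list comes from the same reads, a higher share among strong peaks is partly built in.

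The 26 peaks differed in rank between replicates. Their median rank was 761.5 in replicate 1 (69 to 2445) and 1108.5 in replicate 2 (15 to 2557), and 13 ranked higher in each. The 10 strongest of them were sls-2.4, M7.15, the stronger W06H8.17 peak, sls-2.2, D2021.6, F15G9.t2, F30H5.4, F41D9.t3, T09B4.t1 and Y54G2A.t3. Counting the 1000 strongest of each replicate alone, both held 8 of the 218 (3.67%), where 3.399% of all pooled peaks were.

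**Figure D4:**
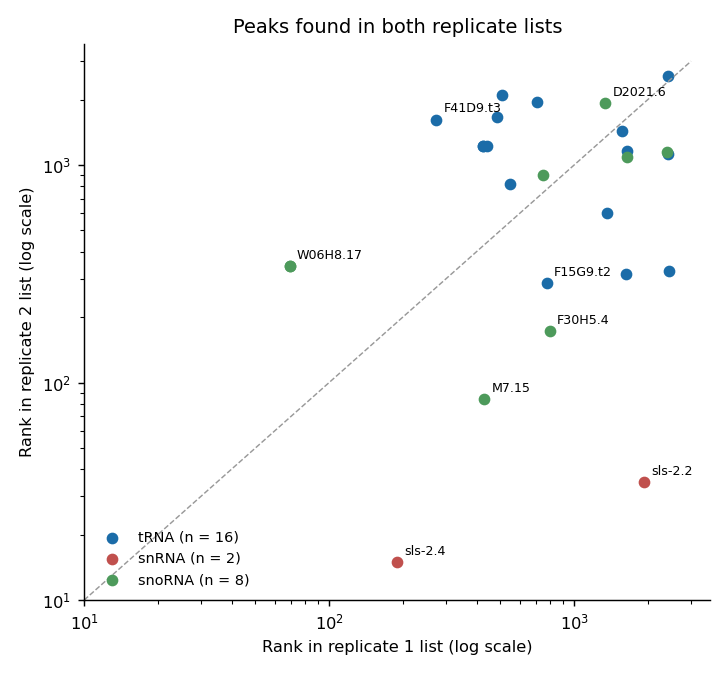
Rank in the replicate 1 list (horizontal axis, log scale) against rank in the replicate 2 list (vertical axis, log scale) for the 26 peaks with a summit within 200 bp in both, coloured by class, with the 8 strongest in the pooled list named and the dashed line marking equal ranks. The points scatter on both sides of the line, 13 on each, with sls-2.2 at 1935 and 35 and W06H8.17 at 69 and 344.

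GAGA-type letters were present at a share close to that of the whole list. GAGAGA, searched on both strands within 100 bp of the summit, was present in 64 of the 218 peaks (29.4%, interval 23.4 to 35.9), where 26.9% of all pooled peaks had it. Among the 47 peaks in the 1000 strongest, 22 had it (46.8%, 32.1 to 61.9), beside 45.7% of the 1000 strongest pooled peaks. The word AGACGCAG, taken from earlier results on these same peaks, was present in 11 of 218 (5.05%, interval 2.55 to 8.85), where 7.13% of all pooled peaks had it. In the 1000 strongest it was in 4 of 47 (8.51%, 2.37 to 20.4), beside 16.8% of the 1000 strongest pooled peaks. The 11 included the peaks at F41D9.t3 (rank 285), C56G7.t1 (561), F15B9.t1 (852), T24H7.6 (1075) and the weaker W06H8.17 peak (724), named after their values were seen. With 1 mismatch allowed the order was the other way, with 25.7% of the 218 and 19.9% of all pooled peaks.

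The B box letters GTTCNANNC, part of the tRNA gene itself, were within 100 bp of the summit in 96 of the 218 peaks (44.0%, interval 37.3 to 50.9), where 7.87% of all pooled peaks had them. The share was 60.7% of tRNA peaks (82 of 135) and 17.1% of snoRNA peaks (12 of 70). In the 1000 strongest it was 27 of 47 (57.4%), beside 7.2% of the 1000 strongest pooled peaks. The tRNA peaks were chosen by their nearness to tRNA genes, so a high share among them is built into the choice of peaks. That does not cover the snoRNA peaks (interval 9.18 to 28.03) or the snRNA peaks (2 of 13), which were assigned to other genes. Of the 14 snoRNA peaks in the 1000 strongest, 5 had the letters. Why snoRNA peaks had them was not tested.

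**Figure D5:**
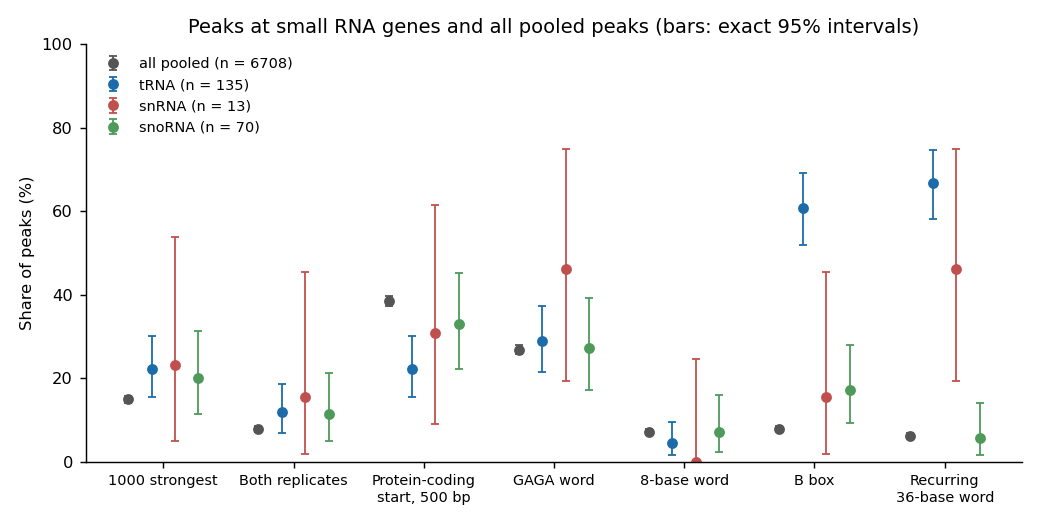
Share of peaks (vertical axis, percent, with exact 95% intervals) for 7 properties, in all 6708 pooled peaks and in the tRNA (n = 135), snRNA (n = 13) and snoRNA (n = 70) peaks, where the GAGA word is GAGAGA, the 8-base word AGACGCAG and the B box GTTCNANNC. The tRNA points stand above all pooled peaks for the B box (60.7%) and for recurring 36-base words (66.7%) and below them for protein-coding starts (22.2%), while the intervals for GAGAGA and AGACGCAG include the share of all pooled peaks.

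Protein-coding genes of the machinery that makes or works with these RNAs were counted from a list of 32 genes, of which 30 were in the annotation. Of the 30, 8 had a pooled summit within 500 bp of a start (26.7%, interval 12.3 to 45.9), where 13.2% of protein-coding genes did. One of the 1000 strongest lay there for 3 of the 30 (10%, 2.11 to 26.5), where 2.98% of protein-coding genes had one. These were nol-56, a core protein of box C/D snoRNA particles (rank 78, signal value 15.7), sna-1, of spliced leader RNA particles (rank 806, 6.53), and fib-1, the rRNA methyltransferase fibrillarin (rank 955, 6.04). Weaker summits lay at snpc-4, a subunit of the complex that activates snRNA transcription (rank 1115), snr-4, a spliceosomal Sm protein (2009), snpc-3.4 (2908), sna-3 (3077) and sna-2 (5374). The snr-4 summit is the one counted above for the snRNA gene T11F9.15, 117 bp from that gene and 278 bp from the snr-4 start. The other 22, among them the RNA polymerase III subunit genes rpc-1 and rpc-2, the TFIIIB gene brf-1 and the repressor gene mafr-1, had no summit within 500 bp.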

How the data were processed

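Peak lists of 2 replicates, a pooled list and a thresholded list on ce11 were used. Per the deposited file lists, the authors called each list against control data, which were not analysed here. Signal values are as deposited by the authors. Their normalization, the aligner, the caller and the read filters were not given in the sources used here. Deposited −log10 q-values of the authors were used only for an alternative ranking. A summit was the peak start plus its deposited offset. Genes came from Ensembl release 115, amino acids from RefSeq, and all coordinates are 1-based. Hosts were protein-coding genes. Summits of 2 lists were shared within 200 bp, and tied peaks took the best rank. Mitochondrial tRNA genes (22) were left out. Precision is set by the number of peaks. Members, words and gene lists were chosen with earlier results of these data known. The genes named were the thresholded peak, the 10 strongest peaks of each class and of those in both replicates, the peaks around the 200 bp limit, and sets of identical genes, while other names were added after seeing values. Anticodons were not used. Counts were made with python 3.11.15, numpy 2.4.6, pandas 2.3.3 and scipy 1.17.1, and the word search was checked on made-up sequences.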

Additional observations from a re-analysis of the deposited data

How the results depend on the processing

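Of 61 alternative values, 32 stayed within the interval of the reported value (or within 1.5 times a count) and 29 moved, most because the alternative redefines what is counted. With summits inside the gene only, 58 peaks remained, of which 31.0% were among the 1000 strongest, 20.7% had both replicates (7.80% of all pooled peaks), 37.9% a protein-coding start (38.4%, so the lower share reported for the 218 was not seen) and 1.72% AGACGCAG (7.13%), and 5.34% of RNA genes had a summit. The share of RNA genes was 15.3% at 100 bp and 26.5% at 500 bp. With the list of a single replicate, there were 80 to 88 peaks, 43.2% to 50% of them among the 1000 strongest of these shorter lists (38.4% to 40.4% of all peaks there), a median rank of 1027 to 1148.5, GAGAGA in 27.3% to 36.2% (27.8% and 32.1% of all peaks) and 8.004% to 8.28% of RNA genes with a summit. The 500 strongest peaks gave 7.80% and the 2000 strongest 41.7% (29.8% of all pooled peaks), so the higher share among strong peaks was seen at 1000 and 2000 and hardly at 500. Ranking by the q-value gave 22.0% (14.9% of all pooled peaks) and counting only peaks over 500 bp from a protein-coding start, chosen after seeing the data, 18.0% (12.2%). Support in both replicates was 7.80% within 100 bp (5.11%) and 3.67% for the 1000 strongest of each (3.399%), with the share of all pooled peaks in parentheses here and below. Support in at least 1 list was 55.96% (51.9%). Windows of 50 bp gave GAGAGA in 14.7% (15.7%) and AGACGCAG in 2.29% (4.28%), windows of 200 bp GAGAGA in 42.2% (40.2%), and 1 mismatch AGACGCAG in 25.7% (19.9%). Protein-coding starts lay within 250 bp of 10.6% (24.8%) and within 1000 bp of 47.2% (53.7%). The thresholded list held 1 of these peaks. No paired analysis was possible because there was 1 group. Read depth, which the files used here do not give, and the small number of snRNA peaks limit what can be compared.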
